A study of Mus musculus with 6 samples.

Results

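The 10 genes described here are encoded by the mitochondrial genome: the ribosomal RNAs mt-Rnr1 and mt-Rnr2 and the mRNAs mt-Co1, mt-Co2, mt-Co3, mt-Cytb, mt-Atp6, mt-Nd1, mt-Nd4 and mt-Nd5. They were chosen by symbol and are 10 of the 37 mitochondrially encoded genes, and of the 38926 gene symbols, in the count lists. RNA sequencing was done on hematopoietic stem cells (HSCs) sorted by surface markers from mouse fetal liver at E14.5 of embryonic development. The 3 control samples had the genotype Vav-Cre; Dpy30F/+ and the 3 knockout samples Vav-Cre; Dpy30F/-, with 1 sample of each genotype from each of 3 litters. All 6 samples thus carry Vav-Cre, a Cre transgene driven by a promoter active in blood-forming cells, and 1 floxed Dpy30 allele, so the controls are heterozygous once Cre has acted. The DPY30 protein belongs to the SET1/MLL complexes, the enzymes that methylate histone H3 at lysine 4. Samples are named by genotype and litter number.

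Mitochondrial DNA is transcribed from both strands as long precursors, and the transfer RNAs that lie between most of the genes mark where the precursors are cut. Mitochondrial RNA polymerase with TFAM and TFB2M starts transcription, and most of the mRNAs then receive short poly(A) tails. The ribosomal RNAs build the mitochondrial ribosome, and the mRNAs encode subunits of respiratory complexes I, III and IV and of ATP synthase. Fetal liver HSCs divide actively, unlike most adult HSCs.

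On the mitochondrial chromosome the 10 genes lie on the plus strand in the order mt-Rnr1 (chrM:70-1024), mt-Rnr2 (chrM:1094-2675), mt-Nd1 (chrM:2751-3707), mt-Co1 (chrM:5328-6872), mt-Co2 (chrM:7013-7696), mt-Atp6 (chrM:7927-8607), mt-Co3 (chrM:8607-9390), mt-Nd4 (chrM:10167-11544), mt-Nd5 (chrM:11742-13565) and mt-Cytb (chrM:14145-15288).

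The libraries were made from poly(A)-selected RNA, so the 3' ends of the mRNAs are shown first. Each line gives the last 30 bases of the gene on the plus strand of the mitochondrial chromosome (GRCm38, GENCODE M21), with the stop codon bases that the DNA itself encodes in capitals:
mt-Nd1: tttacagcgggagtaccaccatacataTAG
mt-Co1: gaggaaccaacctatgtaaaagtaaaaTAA
mt-Co2: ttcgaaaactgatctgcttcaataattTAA
mt-Atp6: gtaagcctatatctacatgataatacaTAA
mt-Co3: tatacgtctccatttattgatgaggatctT
mt-Nd4: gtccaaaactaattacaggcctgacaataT
mt-Nd5: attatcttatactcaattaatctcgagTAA
mt-Cytb: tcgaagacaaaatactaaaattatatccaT
In mt-Co3, mt-Nd4 and mt-Cytb the DNA encodes 1 base of the stop codon and lacks 2. It is known that the poly(A) tail completes such codons. The annotated genes of the other 5 mRNAs encode all 3 bases. Of these, mt-Atp6 ends on the base where mt-Co3 starts (chrM:8607). mt-Nd1 ends within the tRNA gene mt-Ti (chrM:3706-3774) on the same strand. Whether the cut mRNAs keep these bases was not tested. The ribosomal RNAs contain only short runs of A. The longest is 5 bases in mt-Rnr1 and 7 in mt-Rnr2, here in capitals within 30 bases at chrM:692-721 and chrM:1476-1505 (plus strand):
mt-Rnr1: ttcagcaaaccctAAAAAggtattaaagta
mt-Rnr2: tttaaacttgctAAAAAAAcaacaaaatca
The longest run in the 8 mRNAs was 4 bases in mt-Co2 and 5 to 7 in the others. The share of A was higher in the ribosomal RNAs, at 37.8% in mt-Rnr1 and 38.2% in mt-Rnr2 against 29.5% to 34.8% in the 8 mRNAs.

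The 10 genes fell into 2 classes by count. In every library mt-Rnr1, mt-Rnr2, mt-Co1, mt-Cytb, mt-Nd1, mt-Nd4 and mt-Nd5 had between 146407 and 16370515 counts, and mt-Co2, mt-Co3 and mt-Atp6 had 17 or fewer. mt-Co2 and mt-Co3, which encode catalytic-core subunits of cytochrome c oxidase, had 17, 8 and 10 and then 5, 2 and 2 counts in the controls of litters 1 to 3. In the knockouts mt-Co2 had 5, 8 and 8 counts and mt-Co3 had 3, 2 and 1. mt-Atp6, a subunit of the proton channel of ATP synthase, had 17, 11 and 15 counts in controls and 5, 4 and 10 in knockouts. By contrast mt-Co1, the third core subunit of cytochrome c oxidase, never had under 462898 counts.

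**Figure D1:**
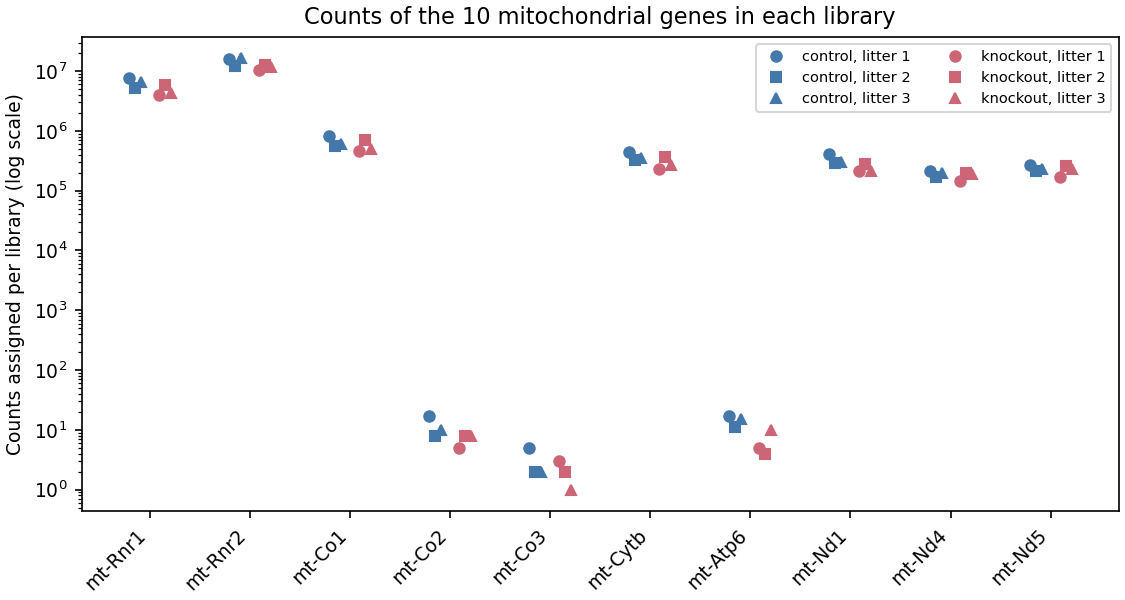
Counts assigned to each of the 10 genes in the 6 libraries (log axis), with controls in blue, knockouts in red and litters 1 to 3 as circles, squares and triangles. mt-Co2, mt-Co3 and mt-Atp6 lie at 1 to 17 counts in all libraries, and the other 7 genes lie at 146407 counts or more.

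All 3 genes near 0 have an almost complete exact copy in the nuclear genome. Each gene was cut into all its windows of 50 bases, and the windows were searched for in every nuclear transcript of GENCODE M21 on both strands. A nuclear copy held 100% of the windows of mt-Co2, 99.9% of those of mt-Co3 and 99.5% of those of mt-Atp6. For the remaining genes the share was 62.2% in mt-Nd4, 51.1% in mt-Co1, 7.61% in mt-Nd5, 1.04% in mt-Rnr2 and 0% in mt-Rnr1, mt-Nd1 and mt-Cytb. With windows of 100 bases it was 30.8% in mt-Co1. Reads with more than 1 alignment are tallied apart in the deposited lists and were given to no gene. They were 15.4%, 16.2% and 15.8% of the reads of the controls of litters 1 to 3 and 13.4%, 18.3% and 17.5% of those of the knockouts. How many of them are mitochondrial was not tested.

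The copies lie side by side on chromosome 1, on the minus strand. Gm28661, at chr1:24614885-24615565, is identical to mt-Co2 over 681 of 681 bases compared. Gm10925, at chr1:24613974-24614651, is identical to mt-Atp6 over 678 bases, and Gm28437, at chr1:24613189-24613971, to mt-Co3 over 783. Gm28439, at chr1:24611535-24612410, is identical to the first 876 of the 1378 bases of mt-Nd4. Gm29216, at chr1:24615706-24616197, differs from the last 492 bases of mt-Co1 at 6 positions. GENCODE calls all 5 unprocessed pseudogenes. Other copies lie on chromosome 2, where Gm13340 differs from mt-Co1 at 37 of 1545 bases. A stretch of mt-Co2 (chrM:7253-7312, plus strand) is shown, because it makes the identity visible, with the same stretch of its copies in Gm28661 (chr1:24615266-24615325, minus strand) and Gm13341 (chr2:22587663-22587722, minus strand), with bases that differ from mt-Co2 in capitals:
mt-Co2: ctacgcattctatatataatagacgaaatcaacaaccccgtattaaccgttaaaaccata
Gm28661: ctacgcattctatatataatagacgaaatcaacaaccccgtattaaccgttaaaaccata
Gm13341: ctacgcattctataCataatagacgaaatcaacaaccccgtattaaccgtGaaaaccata
The chromosome 1 copy has 0 differences in this stretch and the chromosome 2 copy has 2. The chromosome 2 copies did receive counts: 335 to 437 in controls and 277 to 511 in knockouts for Gm13340, and 154 to 181 and 120 to 206 for Gm13341. Of the chromosome 1 copies, 1 is a symbol of the count lists: Gm10222, identical to mt-Nd4l over 294 bases, with 119 to 204 counts in controls and 83 to 214 in knockouts. The other symbols listed as possible copies that are in the count lists, Gm11808 and Gm15564, shared no 50-base window with the mitochondrial genes and are not treated as copies.

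The other 5 mitochondrial mRNAs were looked at in the same way. mt-Nd3 (0 counts in 5 libraries and 1 in knockout 3) and mt-Nd4l (3 to 13 counts), both complex I subunits, had copies of 98.0% and 98.8% of their windows. mt-Nd2, with 8.19% of its windows copied, had 55504 to 133536 counts. mt-Nd6, the mRNA encoded on the opposite strand, had 0% copied and 11016 to 19893 counts; the strand setting of the counting is not given in the sources used here, so its reads and those of the strand opposite cannot be told apart. mt-Atp8 stands apart, with 0 to 3 counts although no window matched an annotated nuclear transcript. It lies in the 230 bases between mt-Co2 and mt-Atp6, apart from its overlap with mt-Atp6. The matching pseudogenes each lack the last 3 bases of their gene and have 233 bases between them, a stretch that the transcript set does not cover and that was not searched. The 22 mitochondrial tRNAs had 294 to 683 counts together, most of them mt-Tp (265 to 606). The next were mt-Tf (11 to 45) and mt-Tl1 (6 to 32).

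**Figure D2:**
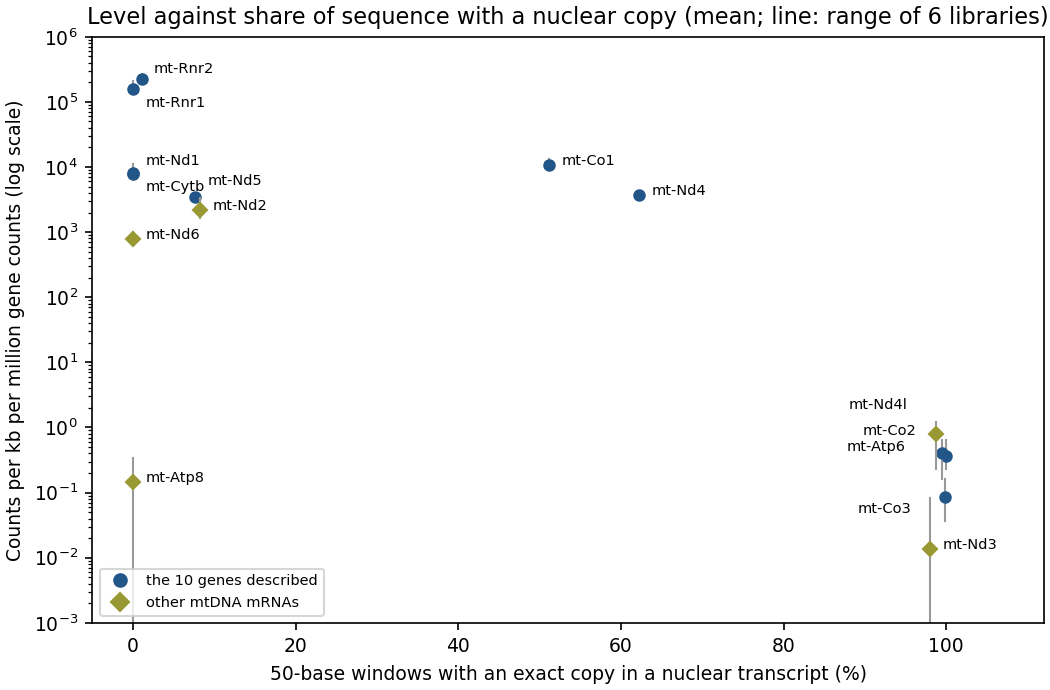
Mean level over 6 libraries, in counts per kb per 1000000 gene counts (log axis), against the percent of each gene's 50-base windows with an exact copy in a nuclear transcript; grey lines span the lowest to the highest library and run off the axis where a library had 0 counts, and mt-Nd1 and mt-Cytb overlie each other at 0%. Genes with at least 98.0% of their windows copied lie at the bottom right, and mt-Atp8 lies low at 0%.

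The values of mt-Co2, mt-Co3 and mt-Atp6 are therefore given as counts of uniquely placed reads and are not read as levels of these mRNAs. How much of mt-Co1 uniquely placed reads could cover depends on the read length, which is not given in the sources used here. In mt-Nd4, 502 windows had no nuclear copy at 50 and at 100 bases. Reads that lie within its first 876 bases cannot be placed uniquely at either length.

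The 7 genes with many counts differed widely in level per length. Counts per kb of gene were highest for mt-Rnr2 (16S ribosomal RNA) in every library. Relative to it, mt-Rnr1 (12S ribosomal RNA) reached 79.2%, 71.1% and 67.8% in the controls of litters 1 to 3 and 63.3%, 76.6% and 62.4% in their knockouts. The mRNAs were far lower. On the same scale, over all 6 libraries, mt-Co1 averaged 4.67%, mt-Nd1 3.56%, mt-Cytb 3.43%, mt-Nd4 1.63% and mt-Nd5 1.52%. The order mt-Rnr2, mt-Rnr1, mt-Co1 held in all 6 libraries, and mt-Nd4 and mt-Nd5 were last in all 6. mt-Nd1 (a complex I subunit) was above mt-Cytb (the mitochondrially encoded subunit of complex III) in all but knockouts 2 and 3, so this pair is not separated by the spread between libraries.

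Counting only windows with no nuclear copy as length moved the genes that are partly copied. The mean relative to mt-Rnr2 was then 9.46% for mt-Co1, 4.30% for mt-Nd4, 3.60% for mt-Nd1, 3.44% for mt-Cytb and 1.62% for mt-Nd5. On this scale mt-Nd4 stood above mt-Cytb and mt-Nd5 in every library. mt-Nd4 and mt-Nd5 both encode complex I subunits that pump protons.

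The question the genotypes answer is how loss of Dpy30 changes these RNAs. Dpy30 itself had 712, 904 and 1395 counts in the controls of litters 1 to 3 and 315, 216 and 478 in their knockouts, so every knockout was below every control (edgeR log2 fold change -1.55, SE 0.46, adjusted p = 0.672). Gene counts per library were 31897737 to 43394700. Of 13 HSC markers all were tested. Knockout 3 had the lowest counts of Slamf1 (18, against 239 to 622 elsewhere), Mecom (405 against 2042 to 5350) and Hlf (954 against 4901 to 8343). Gata2 and Ly6a, of the same list, were not lowest there. Gata2 had 1585 counts against 926 to 1366 in controls, and Ly6a had 12 against 0 in control 3. The summed level of the 11 tested macrophage markers, in counts per 1000000 gene counts after library scaling by the trimmed mean of M values method (TMM CPM), was 361 to 594 in controls and 361 to 1738 in knockouts. Of these 11, 0 passed in edgeR, 5 were higher in knockouts at an unadjusted p under 0.05, and DESeq2 called 3 higher. Over all 13646 genes tested, 0 passed in edgeR, and 582 were higher and 306 lower at that unadjusted p. DESeq2 called 1.03% of the genes for which it gave an adjusted p. For the 13 HSC markers the summed level was 672 to 723 in controls and 284 to 1044 in knockouts. For 11 tested erythroid markers it was 1198 to 2235 and 929 to 2740. Of these 11, 5 had a positive and 6 a negative log2 fold change. In edgeR 0 passed and 2 were lower in knockouts at an unadjusted p under 0.05, and DESeq2 called 1 lower. That 1 was Tfrc, the transferrin receptor, at 381, 364 and 332 TMM CPM in controls and 96.6, 138 and 147 in knockouts (log2 fold change -1.50 and adjusted p = 0.537 in edgeR, adjusted p = 3.99e-05 in DESeq2). The summed level was 80.9 to 142 and 53.8 to 119 for 6 megakaryocyte markers, and 4.63 to 25.7 and 6.24 to 20.5 for 6 hepatocyte markers. For 2 mast cell and basophil markers it was 0.0691 to 4.76 and 6.42 to 17.9. Of these 2, Cpa3 had 0.0691, 3.72 and 0.249 TMM CPM in controls and 11.7, 4.08 and 17.9 in knockouts. Mcpt8 had 0, 1.04 and 0.567 in controls and 0, 2.34 and 0 in knockouts. Fcer1a and Mcpt4, of the same list, had 0 counts in all libraries. Ms4a2 had 27 counts in control 2 and Gzmb had 11 in knockout 3, and both had 0 elsewhere. The part of these markers in the results that follow was not tested.

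All 37 mitochondrial genes together took 67.7%, 54.4% and 57.3% of gene counts in the controls of litters 1 to 3 and 49.2%, 55.7% and 50.1% in their knockouts. Control 1 was the highest library by a wide margin, and the groups overlapped. The control mean was 59.8% ± 6.99 and the knockout mean 51.7% ± 3.53 (SD with n = 3 a group). The difference was -8.09 percentage points over all samples and -4.14 without control 1. Within litters 1 to 3 it was -18.5, 1.35 and -7.14 percentage points, so litter 2 went the other way. The 10 genes made up 99.4% to 99.6% of all mitochondrial counts. A share of gene counts is relative to the nuclear counts and does not by itself show that mitochondrial RNA fell. In these bulk samples fewer cells with a high mitochondrial RNA content and less mitochondrial RNA per cell cannot be told apart either. Knockout 1, the library with the lowest mitochondrial share, also had the highest share of reads outside annotated genes, 26.3% of all reads against 12.5% to 19.6% in the others. Knockouts 2 and 3 had the fewest genes with a count, 14674 and 13972, against 16149 to 17241 in the other 4 libraries. Unaligned reads were 10.4%, 10.9% and 10.1% of all reads in controls and 10.5%, 11.9% and 12.8% in knockouts, higher in the knockout of each litter. The part of these in the results was not tested.

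**Figure D3:**
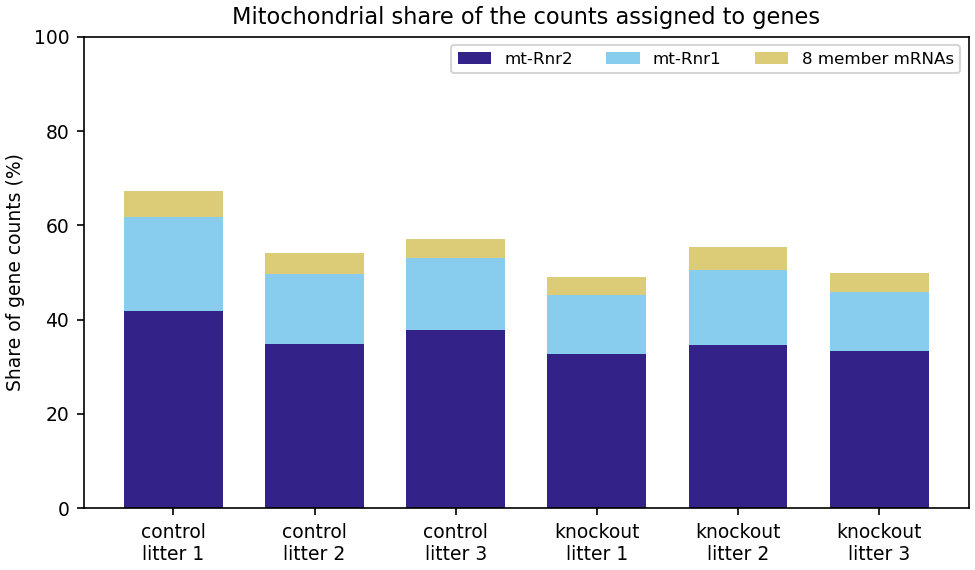
Share of gene counts (percent, axis from 0 to 100) taken by mt-Rnr2, mt-Rnr1 and the 8 mRNAs among the 10 genes in each library. The stacks reach 67.3% in control 1 and 49.0% to 57.1% in the other 5 libraries, with mt-Rnr2 as the largest piece of each.

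mt-Rnr2 took 41.7%, 34.8% and 37.7% of gene counts in the controls of litters 1 to 3 and 32.7%, 34.6% and 33.3% in their knockouts. Every knockout lay below every control, although knockout 2 and control 2 were almost level. The means were 38.1% ± 3.50 and 33.5% ± 0.965 (SD with n = 3 a group; exact permutation p = 0.1, two-sided and without regard to litter, the smallest p that 3 samples against 3 can give). Without control 1 the difference moved from -4.57 to -2.74 percentage points. mt-Rnr1 took 19.95%, 14.9% and 15.4% in controls and 12.5%, 15.98% and 12.5% in knockouts. Its groups overlapped through knockout 2, with means of 16.8% ± 2.77 and 13.7% ± 2.00 (SD with n = 3 a group; exact permutation p = 0.3). Without control 1 its difference moved from -3.10 to -1.51 percentage points.

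Among the mRNAs, mt-Co1 took 2.08%, 1.56% and 1.40% of gene counts in controls and 1.45%, 1.89% and 1.42% in knockouts (exact permutation p = 0.7). mt-Cytb took 1.16%, 0.908% and 0.820% in controls and 0.714%, 0.988% and 0.762% in knockouts (exact permutation p = 0.4). Both sets of values overlapped, with control 1 and knockout 2 the highest of their genotype. mt-Nd1 took 1.07%, 0.832% and 0.697% in controls and 0.663%, 0.775% and 0.621% in knockouts, and was lower in the knockout of all 3 litters (exact permutation p = 0.2). mt-Nd4 took 0.560%, 0.484% and 0.447% in controls and 0.459%, 0.538% and 0.549% in knockouts (exact permutation p = 0.8). mt-Nd5 took 0.689%, 0.604% and 0.524% and then 0.540%, 0.708% and 0.672% (exact permutation p = 0.7). For mt-Nd4 and mt-Nd5 the knockout mean was slightly above the control mean, and the groups overlapped. Of the 7 genes with many counts, mt-Rnr2 was the 1 whose groups did not overlap. mt-Atp6 did not overlap either, but its 4 to 17 counts are not compared between genotypes. Over all 13646 genes tested, 4.06% had every knockout below every control on this scale, 9.28% every knockout above, and 13.3% either.

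These shares have a 95% Wilson interval at most 0.0325 percentage points wide for the 7 genes with many counts, which covers counting error only. The spread between libraries is larger than that for each of them. Nothing in the labels says whether a sample is 1 embryo or a pool.

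In edgeR's quasi-likelihood test across all genes, none of the 8 members kept by the filter on low counts passed the adjusted threshold of 0.05, and 0 of them fell under 0.05 unadjusted. The background was 0% of 13646 genes at the adjusted threshold and 6.51% at an unadjusted p under 0.05. mt-Co2 and mt-Co3 did not pass the filter. DESeq2 also called 0 of the 8, where it called 1.03% of the genes for which it gave an adjusted p.

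The fitted differences were all negative (with libraries scaled by size only, those of mt-Nd4 and mt-Nd5 were 0.05 and 0.08), with a median of -0.45 over the 8 members, and of -0.42 over the 7 with many counts, beside 0.01 over all genes tested (log2 fold change, knockout over control). For mt-Rnr2 the mean TMM CPM was 420506 ± 122053 for controls against 313934 ± 45809 for knockouts (SD with n = 3 a group), with a log2 fold change of -0.42 (SE 0.23; edgeR adjusted p = 0.797). mt-Rnr1 had a log2 fold change of -0.54 (SE 0.29; edgeR adjusted p = 0.797). The largest of the 5 mRNAs with many counts was -0.59 for mt-Nd1 (SE 0.30; edgeR adjusted p = 0.795), followed by -0.47 for mt-Cytb and -0.33 for mt-Co1 (edgeR adjusted p = 0.849 and 0.901). The smallest were -0.18 for mt-Nd4 and -0.15 for mt-Nd5 (edgeR adjusted p = 0.940 and 0.962). mt-Atp6, with 4 to 17 counts, had -1.21 (SE 1.09; edgeR adjusted p = 0.895), which is not read as a difference in level.

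These differences rested mostly on litter 1. The log2 ratio of TMM CPM in litters 1 to 3 was -1.09, 0.08 and -0.17 for mt-Rnr2, -1.42, 0.19 and -0.29 for mt-Rnr1, and -1.03, 0.24 and 0.31 for mt-Nd4. All 7 genes were lower in the knockout of litter 1 by more than 1 on the log2 scale, and 6 of the 7 were higher in the knockout of litter 2; the exception there was mt-Nd1, at -0.02. Control 1 had the smallest TMM factor, 0.747, and knockout 1 the largest, 1.25, while the other 4 libraries lay between 0.990 and 1.05. Without control 1 the log2 fold change became 0.07 for mt-Co1, 0.11 for mt-Nd4 and 0.15 for mt-Nd5, and it moved to -0.16 for mt-Rnr2, -0.19 for mt-Rnr1, -0.20 for mt-Nd1 and -0.11 for mt-Cytb. Without knockout 1 that of mt-Nd5 was 0.04. Without knockout 3, the library lowest in Slamf1, Mecom and Hlf, mt-Rnr2 was at -0.45 and mt-Nd1 at -0.55.

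**Figure D4:**
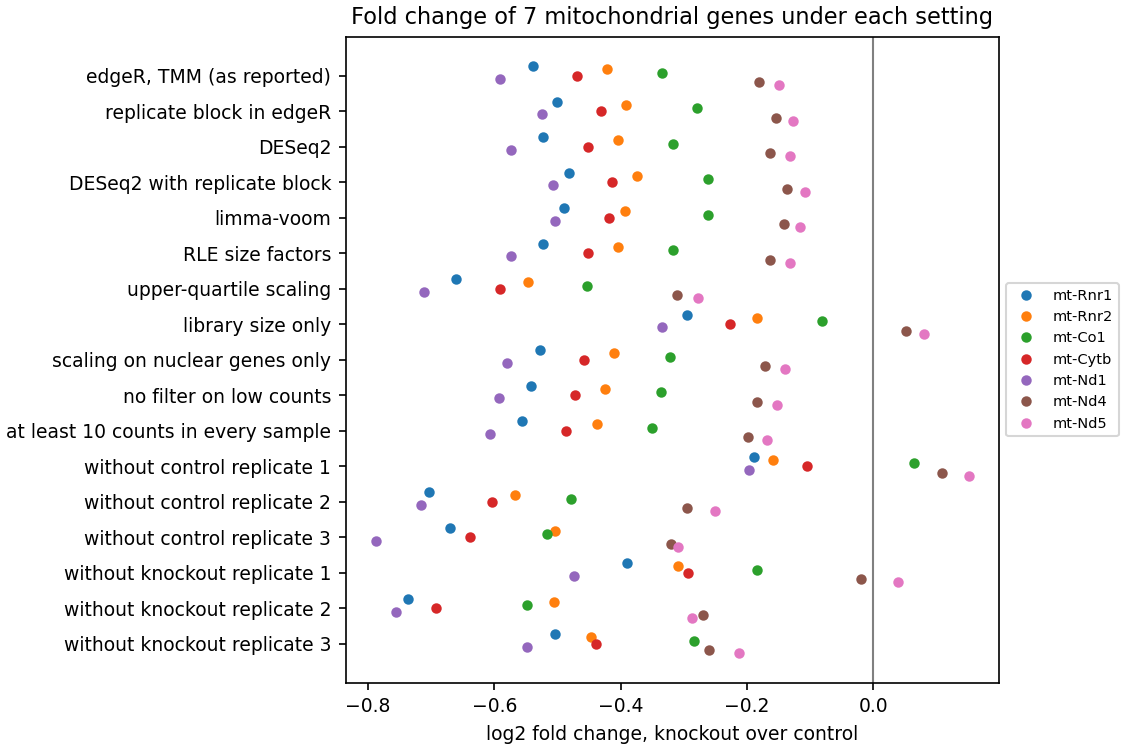
Log2 fold change, knockout over control, of the 7 genes with many counts (colours) under the reported fit and each other setting. Most points lie left of 0; mt-Nd4 and mt-Nd5 cross it when libraries are scaled by size only, mt-Co1, mt-Nd4 and mt-Nd5 without control 1, and mt-Nd5 without knockout 1.

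The 7 genes varied together from library to library. Pearson's r of log2 TMM CPM over the 6 libraries was 0.845 to 0.990 for the 21 pairs, a description of points that share library depth and scaling. mt-Nd4 and mt-Nd5 were the closest pair, at 0.990. The nuclear genes whose log2 TMM CPM was most like that of the summed 10 genes, by Pearson's r over the same 6 libraries among 8502 genes, were Cd274 (0.994), Wdr18 (0.987), Idh3b (0.977), Cluap1 (0.976) and Chordc1 (0.972). They are the top of a ranking over 6 points that share library scaling, so a high r comes with the ranking. Each was highest in control 1, the library with the smallest TMM factor.

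Within the mitochondrial counts, scaling between libraries plays no part. mt-Nd4 took 0.828%, 0.891% and 0.781% of mitochondrial counts in the controls of litters 1 to 3 and 0.933%, 0.965% and 1.10% in their knockouts. Every knockout was above every control, with means of 0.833% ± 0.0551 and 0.998% ± 0.0861 (SD with n = 3 a group; exact permutation p = 0.1, the smallest possible). mt-Nd5 took 1.02%, 1.11% and 0.916% and then 1.10%, 1.27% and 1.34%. It was higher in the knockout of each litter, but knockout 1 lay just below control 2 (means 1.02% ± 0.0975 and 1.24% ± 0.124; SD with n = 3 a group; exact permutation p = 0.2). With each library left out in turn the difference stayed positive, at 0.116 to 0.197 percentage points for mt-Nd4 and 0.169 to 0.290 for mt-Nd5, and both were smallest without knockout 3. Of the 7 genes with many counts, mt-Nd4 was the 1 whose groups did not overlap on this scale. Of all 13646 genes tested, 12.1% had every knockout above every control relative to the mitochondrial total, 2.31% every knockout below, and 14.4% either. For nuclear genes that ratio also moves with the mitochondrial share of the library, so this background does not measure composition within mitochondrial counts. Whether 1 gene of 7 exceeds it was not tested, and it is not read as a result.

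The other members overlapped on that scale. mt-Rnr2 held 63.9% ± 2.09 of mitochondrial counts in controls and 65.0% ± 2.54 in knockouts (SD with n = 3 a group; exact permutation p = 0.5). mt-Rnr1 held 28.0% ± 1.34 and 26.4% ± 2.01 (exact permutation p = 0.3, n = 3 each). mt-Co1 held 2.80% ± 0.323 and 3.06% ± 0.288 (exact permutation p = 0.5, n = 3 each), mt-Cytb 1.60% ± 0.150 and 1.58% ± 0.170 (exact permutation p = 1, n = 3 each), and mt-Nd1 1.44% ± 0.196 and 1.33% ± 0.0776 (exact permutation p = 0.4, n = 3 each). The counts of the 8 mRNAs came to 9.01%, 8.83% and 7.32% of those of the 2 ribosomal RNAs in the controls of litters 1 to 3 and 8.48%, 9.68% and 8.79% in their knockouts, which overlap.

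**Figure D5:**
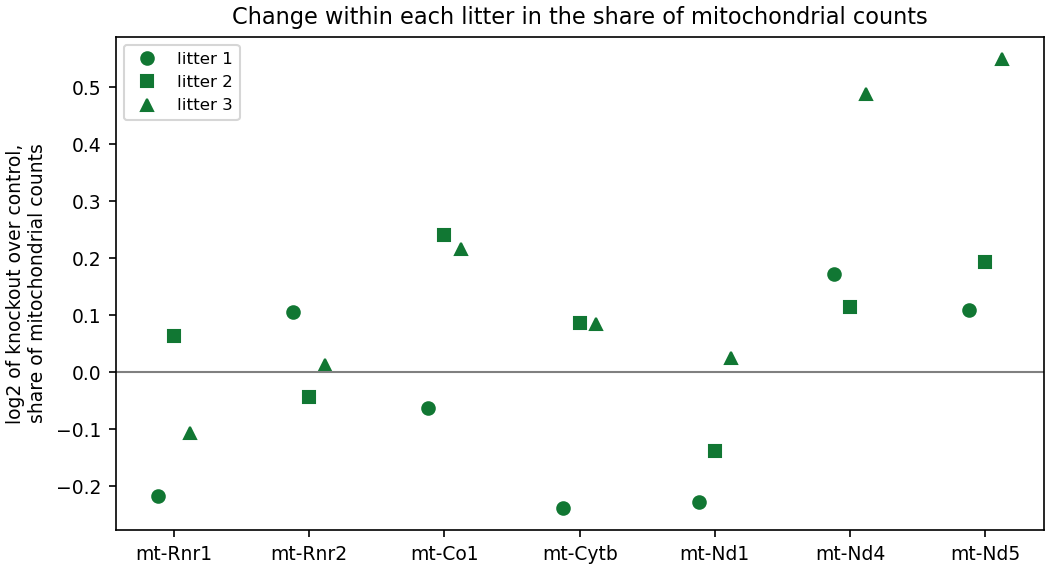
Log2 of knockout over control for the share of mitochondrial counts of 7 genes, with 1 point per litter (circle, square and triangle for litters 1 to 3) and a line at 0. mt-Nd4 and mt-Nd5 lie above 0 in all 3 litters; the other 5 genes have points on both sides.

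Ratios of 2 members were computed next. In 9 of the 21 ratios of the 7 genes the groups did not overlap, and 11 of the 21 went 1 way in all 3 litters. The 9 are by definition among the 11, and the share of all gene pairs that went 1 way was not computed. Of the 10 ratios that set mt-Nd4 or mt-Nd5 against another of the 7 genes, 6 did not overlap. Across all pairs of the 13646 genes tested, with 0.5 added to each count, the groups did not overlap for 13.7%. The 21 ratios share genes and libraries, and whether 9 of 21 exceeds that background was not tested. The ratio of mt-Nd1 to mt-Nd5 was 1.55, 1.38 and 1.33 in the controls of litters 1 to 3 and 1.23, 1.09 and 0.925 in their knockouts. Its mean was 1.42 ± 0.116 in controls and 1.08 ± 0.151 in knockouts, and the knockout mean was 0.763 of the control mean (SD with n = 3 a group; exact permutation p = 0.1). That value ranged from 0.712 to 0.818 when each library was left out in turn. The ratio of mt-Nd1 to mt-Nd4 was 1.91, 1.72 and 1.56 in controls and 1.45, 1.44 and 1.132 in knockouts (exact permutation p = 0.1). mt-Nd1 is the first protein-coding gene after mt-Rnr2 on the genome, and mt-Nd4, mt-Nd5 and then mt-Cytb lie later. For mt-Cytb over mt-Nd1 the groups overlapped, and the knockout mean was 1.07 of the control mean. That value was 0.828 for mt-Cytb over mt-Nd4, with overlap, and 0.811 for mt-Cytb over mt-Nd5, without overlap. Whether the place of a gene on the genome plays a part in these ratios was not tested. A nuclear copy holds 62.2% of the 50-base windows of mt-Nd4 and 51.1% of those of mt-Co1. Counts of these genes thus stand for part of their length, and what this does to the ratios was not tested.

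mt-Co1 also stood higher against mt-Nd1 in knockouts. That ratio was 1.95, 1.87 and 2.01 in controls and 2.19, 2.44 and 2.29 in knockouts, with means of 1.94 ± 0.0674 and 2.31 ± 0.125 (SD with n = 3 a group; exact permutation p = 0.1). The ratio of mt-Co1 to mt-Cytb was 1.74 ± 0.0512 in controls and 1.94 ± 0.0853 in knockouts, again with every knockout (2.03, 1.91 and 1.87) above every control (SD with n = 3 a group; exact permutation p = 0.1). The ratio of mt-Nd4 to mt-Nd5 overlapped, with means of 0.823 ± 0.0268 and 0.809 ± 0.0456 (SD with n = 3 a group; exact permutation p = 0.8). The 2 ribosomal RNAs overlapped as well: mt-Rnr1 was 0.478, 0.429 and 0.409 of mt-Rnr2 in controls and 0.382, 0.462 and 0.377 in knockouts (exact permutation p = 0.5). None of the 21 tests, which do not use the litters, can fall below 0.1, and a test within the 3 litters could not fall below 0.25. These ratios were singled out after their values were seen.

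The nuclear genes that make, process and use these RNAs were followed through 5 lists. No gene of the 5 lists was called by edgeR or DESeq2. Of 4 tested genes of mitochondrial transcription, 0 passed in edgeR and 0 had an unadjusted p under 0.05, with a median log2 fold change of -0.16. Tfam packages mitochondrial DNA and takes part in starting its transcription. It had 38.3, 35.2 and 29.6 TMM CPM in the controls of litters 1 to 3 and 29.9, 47.0 and 8.31 in their knockouts. Knockout 3 was the lowest. Tefm, the elongation factor of the mitochondrial polymerase, had 18.5, 6.28 and 8.28 in controls and 2.54, 0.138 and 12.9 in knockouts. Tfb2m, which opens promoters, was at 7.85 ± 3.56 and 7.57 ± 2.76 (SD with n = 3 a group). Control and knockout values overlap for all 3 genes.

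Of 28 tested genes of mitochondrial RNA processing and stability, 0 passed in edgeR and 0 had an unadjusted p under 0.05. Of them 13 had a positive and 15 a negative log2 fold change, and the median was -0.01. The smallest unadjusted p belonged to Rexo2, which degrades short RNAs in mitochondria, at 61.5 ± 20.3 TMM CPM in controls and 116 ± 55.9 in knockouts (SD with n = 3 a group; edgeR adjusted p = 0.775). Tbrg4 was at 49.9 ± 9.29 and 26.6 ± 13.7, and 1110008L16Rik at 40.3 ± 3.10 and 27.8 ± 4.30 (SD with n = 3 a group; edgeR adjusted p = 0.792 and 0.800). All 3 controls were above all 3 knockouts for both of these genes. Over all genes tested, groups did not overlap in log2 TMM CPM for 14.1%. The genes named from each list have its smallest unadjusted p, a choice that favours groups that do not overlap.

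Of 13 tested genes of mitochondrial DNA maintenance, 0 passed in edgeR and 1 was higher at an unadjusted p under 0.05, and the median log2 fold change was 0.50. Top3a, a topoisomerase, was at 6.28 ± 1.35 and 20.3 ± 15.1 TMM CPM, and Rrm2b, a subunit of ribonucleotide reductase, at 8.57 ± 5.09 and 21.95 ± 13.7 (SD with n = 3 a group; edgeR adjusted p = 0.753 and 0.795). Lonp1, a protease of the mitochondrial matrix, was at 23.6 ± 10.2 and 40.2 ± 11.9 (SD with n = 3 a group; edgeR adjusted p = 0.797).

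Of 9 tested regulators of mitochondrial biogenesis, 0 passed in edgeR and 2 were lower at an unadjusted p under 0.05. Of the 9, 7 had a negative log2 fold change, and the median was -0.64. Nrf1, a transcription factor for nuclear genes of mitochondrial proteins, had 26.5, 22.0 and 36.7 TMM CPM in controls and 14.1, 15.7 and 8.60 in knockouts, so that every knockout lay below every control (edgeR log2 fold change -1.15, SE 0.42, adjusted p = 0.729). Tfdp1 is listed here although it is best known as a partner of E2F factors. It was at 52.7 ± 6.72 and 33.9 ± 3.81, without overlap (SD with n = 3 a group, edgeR adjusted p = 0.762). Ppargc1b, a coactivator, was at 12.3 ± 3.56 and 3.95 ± 4.92, with overlap (SD with n = 3 a group, edgeR adjusted p = 0.828). Groups did not overlap for 14.1% of all genes tested.

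The 41 nuclear-encoded partner subunits of the same complexes were all tested. In edgeR 0 passed, and 1 was higher and 1 lower at an unadjusted p under 0.05, with 23 positive and 18 negative log2 fold changes and a median of 0.16. Ndufb8 of complex I was at 6.93 ± 0.808 and 20.3 ± 8.84 TMM CPM, with every knockout above every control, and Atp5c1 of ATP synthase at 104 ± 23.1 and 64.5 ± 10.5, with every knockout below every control (SD with n = 3 a group; edgeR adjusted p = 0.721 and 0.733). Atp5f1, another subunit of ATP synthase, was at 38.7 ± 5.26 and 58.7 ± 14.96, with every knockout above every control (SD with n = 3 a group, edgeR adjusted p = 0.790). Over all genes tested, 14.1% had groups that did not overlap in TMM CPM.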

How the data were processed

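The authors deposited 1 list of whole-number read counts per gene symbol for each of the 6 samples, not normalized, each ending with 5 tallies of reads that were assigned nowhere. Per the submitters' processing notes, which give no roles, CASAVA 1.8.4, TopHat2, Picard 1.126, HTSeq 0.6.0, DESeq 3.0 and bedtools 2.17.0 were used with build mm10. The annotation, strand setting and read length are not given in the sources used here, so the windows of 50 bases are not a read length. Per the labels' protocols RNA was poly(A)-selected in 2 rounds.

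Samples were grouped by the genotype label, with the litter number as replicate. Genes were kept with filterByExpr by group, scaled by TMM and tested with edgeR 4.0.16 (R 4.3.3; glmQLFit, glmQLFTest) with genotype as the one term and Benjamini-Hochberg adjustment over all genes and a threshold of 0.05. SEs were derived from the F statistic; a prior count of 2 entered log2 CPM. Single values were compared by two-sided exact permutation tests that ignore litter, given unadjusted. Alternatives used DESeq2 1.42.0, limma-voom (limma 3.58.1), litter as a block, other scalings and filters, and each sample left out. The scripts were tested on simulated data. The labels give litters, which pair the samples. The deviations of same-litter samples from their genotype means correlated at -0.02, -0.08 and 0.00336 over all genes tested, and at 0.03, 0.49 and 0.56 over the members alone.

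Named genes are the 10 members, the other mitochondrial mRNAs, the 3 tRNAs with most counts, Dpy30, up to 3 genes per nuclear list by unadjusted p, nuclear copies with over 100 counts, and the 5 genes most like the summed members, of at least 5 CPM and without a Gm or Rik symbol. Slamf1, Mecom, Hlf and the ratios were singled out after their values were seen. The mast cell and basophil list is named in full. The members and lists were chosen with earlier results of these data known. Sequences, positions and lengths are from GENCODE M21 (GRCm38, the assembly of mm10).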

Additional observations from a re-analysis of the deposited data

How the results depend on the processing

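No member passed the threshold in edgeR, DESeq2 or limma-voom under any setting run, including litter as a block. Over all genes the count past the threshold was 0 in the reported edgeR fit, 138 with DESeq2, 277 with DESeq2 and the replicate block (litter), 1 without a filter on low counts and 1 with at least 10 counts in every sample; with litter as a block in edgeR it was 0, with 619 genes at an unadjusted p under 0.05 against 888 in the reported fit. With each sample left out in turn edgeR gave 0, and between 593 and 1796 genes fell under 0.05 unadjusted. Litter as a block left the direction of every tested member as it was, and gave -0.39 for mt-Rnr2. Scaling by library size only turned mt-Nd4 to 0.0516 and mt-Nd5 to 0.0796, where the median log2 fold change of all genes moved from 0.01 to 0.23; the median was -0.10 under upper-quartile scaling, -0.12 with the block in edgeR and -0.14 with limma-voom. With each sample left out in turn, the log2 fold change ranged from -0.55 to 0.0651 for mt-Co1, from -0.32 to 0.11 for mt-Nd4 and from -0.31 to 0.15 for mt-Nd5. In the same way the difference in share of gene counts, in percentage points, ranged from -0.243 to 0.108 for mt-Co1, from -0.00709 to 0.0493 for mt-Nd4 and from -0.00659 to 0.0839 for mt-Nd5, and that in share of mitochondrial counts from -0.119 to 0.0424 for mt-Cytb. The positive values of mt-Co1 come without control 1, those of mt-Nd4 and mt-Nd5 in the fit without control 1 and, for mt-Nd5, without knockout 1. The cause was not tested. Windows of 100 bases and whole gene lengths were alternatives chosen after seeing the data. Depth does not limit the 7 genes with many counts, whose precision is set by 3 samples a group; mt-Co2, mt-Co3 and mt-Atp6 have too few uniquely placed reads to compare genotypes.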
